A study of Mus musculus with 4 samples.

Results

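ATP-binding cassette (ABC) genes were followed in AML12 cells, a mouse hepatocyte line derived from animals carrying a transforming growth factor alpha transgene, after a lentiviral short hairpin RNA against Safb (shSafb) or a control hairpin (shCtrl). Members were all genes of the deposited table whose symbol starts with Abc, a letter from a to g and a digit, with pseudogene names ending in -ps left out, which gave 50 of 52192 genes and removed 0. By subfamily letter, 16 belonged to A, 10 to B, 10 to C, 4 to D, 1 to E, 3 to F and 6 to G. Each group had 2 libraries of total RNA depleted of ribosomal RNA, and all 4 came from cells kept with 10% serum, an insulin, transferrin and selenium supplement and 0.1 µM dexamethasone, given 200 µl of virus concentrate and collected at day 5. Each library has 1 value per gene in TPM, a transcript level scaled by length and to a fixed library total. One hairpin per group is named in the labels, and nothing there says that replicates were separate cultures, so a p-value here covers the variation among 4 libraries, which may be technical.

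ABC proteins bind and split ATP through a conserved cassette, and most use that energy to move a substrate across a membrane. Many subfamily A and G members move sterols and phospholipids. B and C members include the multidrug and bile pumps and several mitochondrial proteins, and most D members bring fatty acids into peroxisomes. E and F proteins have the cassette but no membrane part and act on ribosomes. In the hepatocyte, the apical (canalicular) membrane exports bile salts through ABCB11, phosphatidylcholine through ABCB4, conjugated bilirubin through ABCC2 and sterols through the ABCG5 and ABCG8 pair, while the basolateral membrane holds ABCA1, ABCC3 and ABCC4.

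The targeted gene Safb stood at 15.8 and 15.02 TPM in the shSafb libraries, against 23.8 and 23.3 TPM in the shCtrl libraries, so a large part of the transcript remained. Its paralog Safb2 was at 31.0 and 37.4 TPM in shSafb against 27.1 and 26.4 TPM in shCtrl. Of 8 hepatocyte markers, Alb, Ttr, Trf, Hnf4a, Apoa1 and Serpina1a exceeded 28 TPM in all 4 libraries, while Apoa2 and Ahsg stayed under 1 TPM. Of the 6 tested, 2 were higher and 2 lower in shSafb, where 21.9% of all tested genes were called higher and 22.4% lower. The 8 markers summed to 9430 and 9414 TPM in shSafb against 5450 and 5310 TPM in shCtrl. Trf, the transferrin gene and the largest part of that sum, had 6814 and 6778 TPM in shSafb against 2453 and 2418 TPM in shCtrl (limma adjusted p = 5.31e-04). Alb, the albumin gene, went the other way with 122 and 127 TPM in shSafb against 378 and 345 TPM in shCtrl (limma adjusted p = 5.31e-04). Of the 6 cholangiocyte markers, 5 were tested, 1 was higher and 3 were lower, against the same shares over all tested genes. Among the lower ones, Cftr reached the filter of 1 TPM only through the shCtrl libraries. The 6 summed to 1514 and 1579 TPM in shSafb against 1676 and 1642 TPM in shCtrl, with large parts moving in opposite directions. Krt19 was higher, at 676 and 679 TPM in shSafb against 320 and 320 TPM in shCtrl (limma adjusted p = 5.42e-04). Spp1 was lower, at 610 and 671 TPM in shSafb against 1108 and 1101 TPM in shCtrl (limma adjusted p = 0.00149). The 6 stellate and fibroblast markers summed to 1.99 and 2.20 TPM in shSafb against 1.92 and 1.92 TPM in shCtrl, the 1 tested not past the threshold, with Lrat listed at 0 throughout. The 5 macrophage markers summed to 2.83 and 3.09 TPM in shSafb against 1.51 and 1.77 TPM in shCtrl, with Adgre1 and Clec4f listed at 0 throughout. The 1 macrophage marker tested, Csf1r, was higher, at 1.92 and 1.72 TPM in shSafb against 0.239 and 0.450 TPM in shCtrl (limma adjusted p = 0.00852). It reached the filter of 1 TPM only through the shSafb libraries. Among untested markers, Cd68 was listed lower, at 0.463 and 0.922 TPM in shSafb against 0.972 and 1.05 TPM in shCtrl. Ptprc was listed higher, at 0.452 and 0.452 TPM in shSafb against 0.303 and 0.272 TPM in shCtrl. The 4 endothelial markers summed to at most 0.134 TPM in shSafb and 0.153 TPM in shCtrl, with Cdh5 and Kdr listed at 0 throughout. The part of these markers in the ABC gene differences was not tested.

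The ABC genes together summed to 942 and 923 TPM in the shSafb libraries, against 1059.6 and 975 TPM in the shCtrl libraries. The groups did not overlap, but the shCtrl libraries differed from each other by more than the shSafb libraries did. Of the 50 genes, 8 averaged at least 50 TPM over the 4 libraries, 12 lay between 10 and 50, and 10 between 1 and 10. The 8 highest, in falling order Abca3, Abcc3, Abcf2, Abcg2, Abce1, Abcf1, Abcd3 and Abcc4, held 66.7% and 67.9% of the family's TPM in shSafb and 69.4% and 67.6% in shCtrl. Another 20 genes averaged under 1 TPM and were not tested. Of these, 7 were listed at 0 in every library (Abca12, Abca15, Abcb5, Abcc9, Abcd2, Abcg1 and Abcg3), 7 had a value above 0 but stayed under 0.1 TPM, and 6 reached 0.1 TPM in at least 1 library. Exons of 12 members overlap those of another gene, and the sources used here do not say whether reads were assigned by strand. On the opposite strand, D330041H03Rik covers 9.75% of the exonic bases of Abca3 and had 2.56 and 2.66 TPM in shSafb, against 3.25 and 2.26 TPM in shCtrl. Gm45890 covers 10.3% of those of Abcb10 and stayed under 1 TPM in every library.

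**Figure D1:**
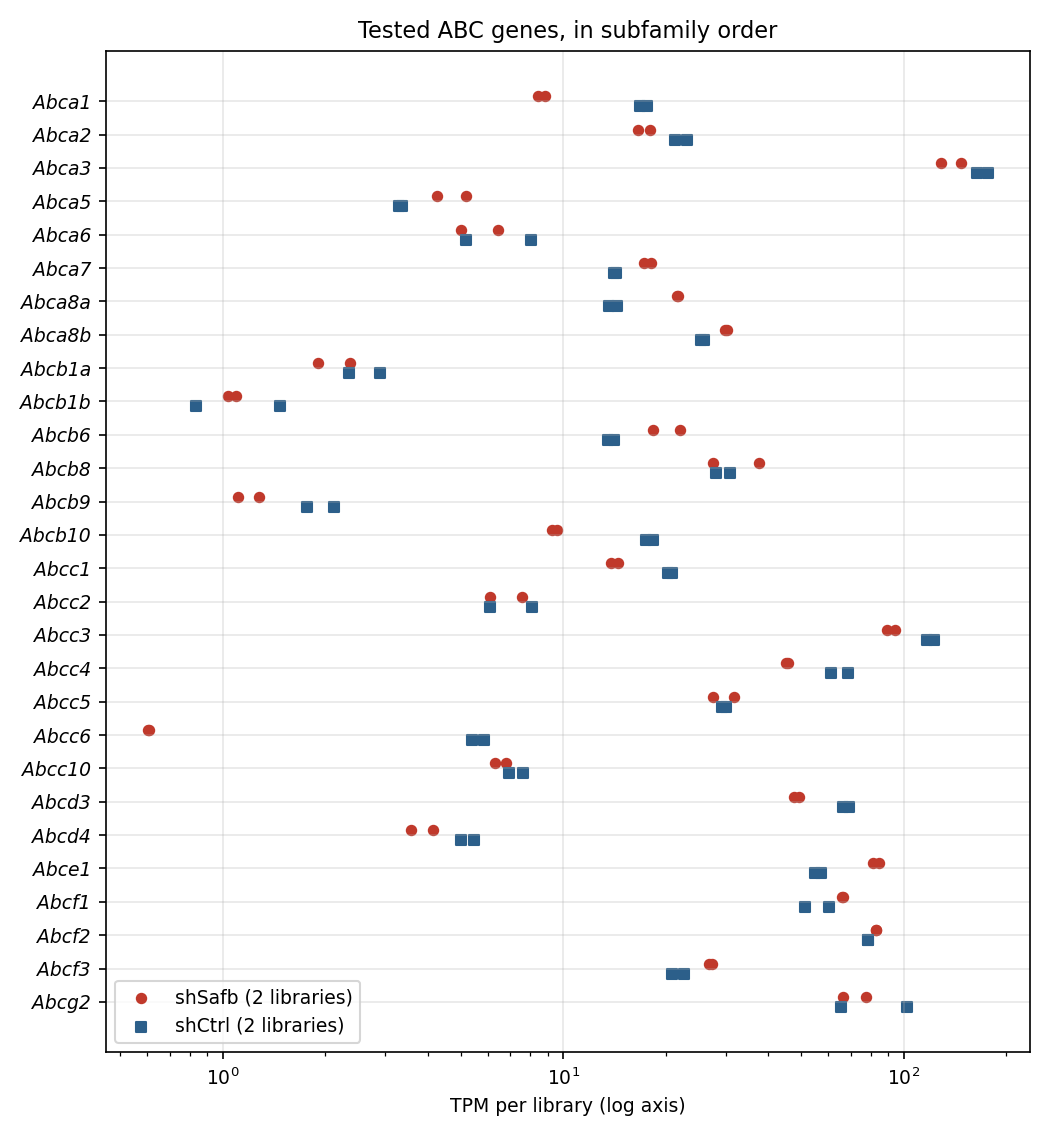
TPM per library on a log axis for tested ABC genes, in subfamily order. Circles are the 2 shSafb libraries and squares the 2 shCtrl libraries of each gene. The shSafb circles of Abcc6, at 0.605 and 0.601 TPM, lie farthest left of their shCtrl squares, at 5.86 and 5.39 TPM.

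Of the 30 tested ABC genes, 7 were higher and 10 lower in shSafb (limma on log2(scaled TPM + 1), Benjamini-Hochberg adjusted p under 0.05 over all 13111 tested genes). That is 56.7% called, 23.3% higher and 33.3% lower, where 44.3% of all tested genes were called, 21.9% higher and 22.4% lower. The median log2 difference was -0.14 over the 30 genes and 0.00 over all tested genes. In 23 of the 30 genes the 2 groups did not overlap (76.7%, against 74.7% of all tested genes). Both shSafb libraries were above both shCtrl libraries in 9 genes, as in 35.5% of all tested genes, and below them in 14, as in 39.3% of all tested genes. The share of members called was thus near the background for rises and above it for falls, and a difference of that size over 30 genes was given no test. Most called differences were small: 4 falls and 1 rise also passed a fold of 1.5, which 10.7% of all tested genes passed downward and 9.94% upward. Leaving out 1 library at a time leaves 1 library in a group, and no called ABC gene changed sign in these fits. In bulk RNA, fewer cells with a transcript and less of it per cell cannot be told apart.

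**Figure D2:**
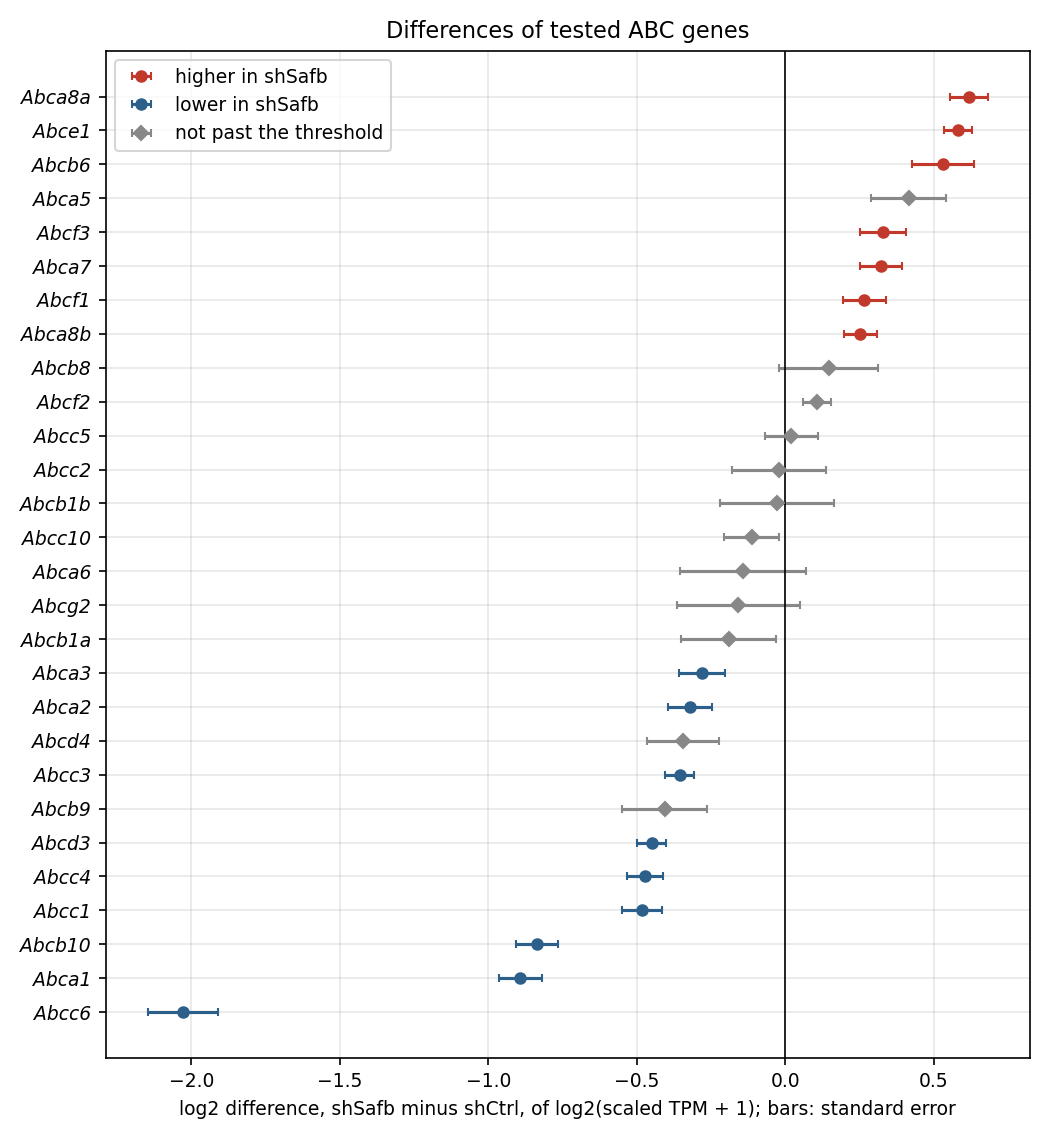
Log2 difference, shSafb minus shCtrl, of log2(scaled TPM + 1) for tested ABC genes, with limma standard errors. The lower genes reach from Abcc6 at -2.03 to Abca3 at -0.28, and the higher ones from Abca8b at 0.25 to Abca8a at 0.62, while diamonds mark genes not past the threshold.

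Among 10 genes of sterol and phospholipid export, 5 were tested, of which 3 were lower and 1 higher in shSafb, where 22.4% of all tested genes were called lower and 21.9% higher. Abca1, whose product loads cholesterol and phospholipid onto apolipoprotein A-I, had 8.45 and 8.87 TPM in shSafb, against 17.7 and 16.8 TPM in shCtrl. Both shSafb libraries thus lay well under both shCtrl libraries, with a 1.99-fold lower mean (log2 difference -0.89 ± 0.07 SE, limma adjusted p = 0.00176), and the call held under each of 13 alternative settings (adjusted p 0.00162 to 0.0153). The gene (ENSMUSG00000015243) spans chromosome 4 from 53030787 to 53159895 on the minus strand of mm10.

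Promoter sequence is shown for genes whose call also passed a fold of 1.5, as the 250 bases before the RefSeq start on GRCm38.p6, read 5′ to 3′ on the gene's strand. An entry exists for 38 of the 50 members, with 45 starts in all, Abca1, Abca8a and Abcb10 among them, while Abcc6 is named only. Capitals mark CACGTG, the E-box bound by basic helix-loop-helix factors, which reads the same on both strands. The Abca1 window lies at chr4:53159896-53160145 (minus strand) and has its E-box from position -147, counted back from the base before the start.
Abca1 promoter: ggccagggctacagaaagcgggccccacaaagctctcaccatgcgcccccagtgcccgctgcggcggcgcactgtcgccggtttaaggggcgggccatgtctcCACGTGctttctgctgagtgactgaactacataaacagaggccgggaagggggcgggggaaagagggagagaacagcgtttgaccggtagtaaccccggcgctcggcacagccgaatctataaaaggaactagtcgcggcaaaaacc
The Abca8a window lies at chr11:110095938-110096187 (minus strand) and has its E-box from position -136.
Abca8a promoter: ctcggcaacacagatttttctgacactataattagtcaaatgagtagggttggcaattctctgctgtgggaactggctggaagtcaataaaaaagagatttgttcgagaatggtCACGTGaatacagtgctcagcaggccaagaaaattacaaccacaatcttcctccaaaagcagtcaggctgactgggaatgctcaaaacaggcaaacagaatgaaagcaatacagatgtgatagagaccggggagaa
The Abcb10 window lies at chr8:123983123-123983372 (minus strand) and holds none of the 3 motifs searched.
Abcb10 promoter: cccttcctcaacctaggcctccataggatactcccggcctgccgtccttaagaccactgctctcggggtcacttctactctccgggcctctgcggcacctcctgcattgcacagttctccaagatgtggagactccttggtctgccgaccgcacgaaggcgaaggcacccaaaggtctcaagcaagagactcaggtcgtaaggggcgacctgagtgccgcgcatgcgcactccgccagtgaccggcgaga
CACGTG was in 5 of the 45 member windows (11.1%; Abca1, Abca8a, Abca15, Abcc4 and Abcf1) and in 6.02% of all 32851 windows of this length. TGACNNNGC, the core of the antioxidant response element, searched on both strands, was in 4 member windows (8.89%), which belong to Abcc2, Abcc4 and Abcc10, and in 10.2% of all windows. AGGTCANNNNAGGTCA, the strict form of the direct repeat that liver X receptors bind, was in 0 member windows and in 0.0152% of all windows on either strand. The E-box genes did not share a direction, since Abca1 and Abcc4 were lower, Abca8a and Abcf1 higher and Abca15 listed at 0.

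Abca2 and Abca3 were lower by smaller amounts. Abca3, the most abundant ABC transcript here and known for filling surfactant bodies with phospholipid in the lung, had 148 and 129 TPM in shSafb, against 177 and 165 TPM in shCtrl (log2 difference -0.28 ± 0.08 SE, limma adjusted p = 0.0436). Abca3 was not called without shSafb replicate 2 (adjusted p = 0.126), shCtrl replicate 1 (0.145) or shCtrl replicate 2 (0.0999). Abca2, a transporter of late endosomes and lysosomes, had 17.97 and 16.6 TPM in shSafb, against 23.1 and 21.4 TPM in shCtrl (log2 difference -0.32 ± 0.07, limma adjusted p = 0.0247), and lost its call without any 1 library (0.0566 to 0.113). In the opposite direction, Abca7, which is close in sequence to Abca1 and moves phospholipids, had 18.1 and 17.3 TPM in shSafb, against 14.3 and 14.1 TPM in shCtrl (log2 difference 0.32 ± 0.07, limma adjusted p = 0.0216), also not called without any 1 library (0.0639 to 0.101). Abca5, another lysosomal member, did not pass at 5.17 and 4.26 TPM in shSafb, against 3.36 and 3.30 TPM in shCtrl (log2 difference 0.41 ± 0.13, limma adjusted p = 0.0543).

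The G members of sterol export were close to or at 0. Abcg1, which hands cholesterol to high-density lipoprotein, was listed at 0 in all 4 libraries, and Abcg4, its close relative, reached at most 0.0337 TPM. Abcg5, a partner in the canalicular sterol pump, was listed at 0 in both shSafb libraries, against 0.462 and 0.192 TPM in the shCtrl libraries. Abcg8, the other partner, had 0.0184 and 0.0416 TPM in shSafb, against 0.0825 and 0.124 TPM in shCtrl. Both shSafb libraries were thus listed below both shCtrl libraries for each partner of the pump, as in 39.3% of all tested genes. Levels of both partners were too low for the test. They lie head to head on chromosome 17, where Abcg5 (84658234 to 84683011, minus strand) and Abcg8 (84676302 to 84700333, plus strand) overlap over 82 exonic bases. With genes from a mean of 0.1 TPM tested, Abcg5 did not pass (limma adjusted p = 0.0876). Other members under the filter, Abca4, Abca9, Abca17, Abcc8 and Abcc12, were listed the other way, with both shSafb libraries above both shCtrl libraries.

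Among 7 genes of bile export, 3 were tested, of which 2 were lower and 0 higher, beside 22.4% and 21.9% of all tested genes called lower and higher. Those 2 export across the basolateral membrane. Abcc3, which moves conjugated bile salts and glucuronides into blood, had 89.4 and 94.3 TPM in shSafb, against 123 and 117 TPM in shCtrl (log2 difference -0.36 ± 0.05 SE, limma adjusted p = 0.00584). Abcc4, which moves bile salts together with glutathione and also cyclic nucleotides, had 45.2 and 45.8 TPM in shSafb, against 68.6 and 61.01 TPM in shCtrl (log2 difference -0.47 ± 0.06, limma adjusted p = 0.00478). Both calls held under all 13 alternative settings, with adjusted p up to 0.0383 for Abcc3 and 0.0308 for Abcc4. On the canalicular side, Abcc2, the exporter of conjugated bilirubin, had 7.57 and 6.11 TPM in shSafb, against 8.11 and 6.12 TPM in shCtrl, and the groups overlapped (log2 difference -0.02 ± 0.16, limma adjusted p = 0.925). The pumps for bile salts and phosphatidylcholine were near 0: Abcb11 stood at 0.0134 and 0.0150 TPM in shSafb and at 0.0151 and 0 TPM in shCtrl. Abcb4 was at 0.0197 and 0 TPM in shSafb, against 0.0186 and 0.0371 TPM in shCtrl.

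Among 11 drug and conjugate pumps, 10 were tested, of which 4 were lower and 0 higher, while the shares over all tested genes were 22.4% lower and 21.9% higher. Of these, Abcc3 and Abcc4 are counted among bile export as well. Abcc6 had the largest difference of all tested ABC genes. Its product, a basolateral hepatocyte protein that makes the cell release ATP and whose loss causes pseudoxanthoma elasticum, had a transcript level of 0.605 and 0.601 TPM in shSafb, against 5.86 and 5.39 TPM in shCtrl. The means were 9.32-fold apart (log2 difference -2.03 ± 0.12 SE, limma adjusted p = 8.96e-04), and with a pseudocount of 0.1 the log2 difference was -3.00. Abcc6 reached the filter of 1 TPM only through the shCtrl libraries. With no filter on low TPM, its limma adjusted p was 0.00548. The gene (ENSMUSG00000030834) spans chromosome 7 from 45967555 to 46030302 on the minus strand of mm10. Abcc1, the multidrug resistance protein that exports glutathione conjugates, had 14.5 and 13.9 TPM in shSafb, against 20.8 and 20.3 TPM in shCtrl (log2 difference -0.48 ± 0.07, limma adjusted p = 0.00622). Both calls held under all 13 alternatives, with adjusted p up to 0.0122 for Abcc6 and 0.0377 for Abcc1.

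The remaining drug pumps did not pass. Abcg2, the breast cancer resistance protein and the highest G member, had 66.6 and 77.7 TPM in shSafb, against 102 and 65.6 TPM in shCtrl. The 2 shCtrl libraries enclosed both shSafb libraries (log2 difference -0.16 ± 0.21 SE, limma adjusted p = 0.567), and the log2 difference was -0.46 without shCtrl replicate 2 (limma adjusted p = 0.0545) and 0.12 without shCtrl replicate 1 (0.447). The P-glycoprotein genes were low: Abcb1a had 2.36 and 1.90 TPM in shSafb, against 2.35 and 2.89 TPM in shCtrl (log2 difference -0.19 ± 0.16, limma adjusted p = 0.381). Abcb1b had 1.09 and 1.04 TPM in shSafb, against 1.47 and 0.833 TPM in shCtrl (log2 difference -0.03 ± 0.19, limma adjusted p = 0.918). These paralogs are uncertain one by one, since 17.0% of the distinct 50-base stretches of the Abcb1a transcript and 18.3% of those of Abcb1b also occur in transcripts of other genes, mostly in each other's. Abcc5, a cyclic nucleotide and heme exporter, had 27.6 and 31.7 TPM in shSafb, against 29.2 and 30.1 TPM in shCtrl (log2 difference 0.02 ± 0.09, limma adjusted p = 0.871). Abcc10, another multidrug resistance protein, had 6.29 and 6.77 TPM in shSafb, against 7.62 and 6.94 TPM in shCtrl (log2 difference -0.11 ± 0.09, limma adjusted p = 0.367). Abcc12, not tested, stayed under 0.1 TPM in every library.

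**Figure D3:**
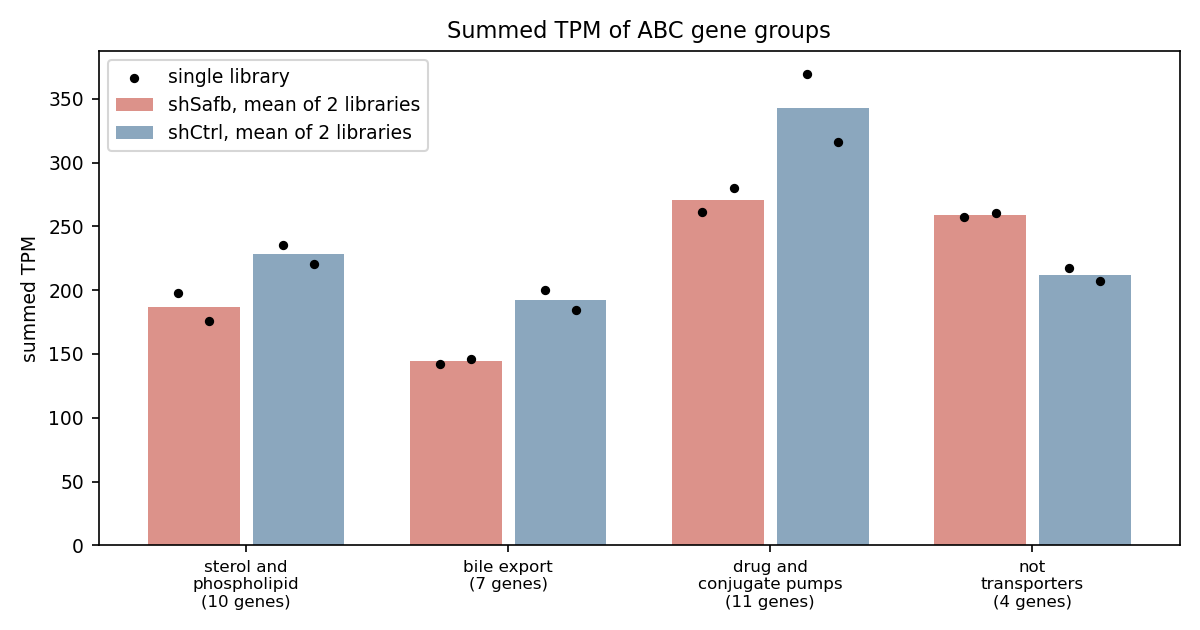
Summed TPM of 4 groups of ABC genes. Bars are means of the 2 libraries of a group, dots are single libraries, and the first 3 groups share some genes. The 4 genes that do not encode transporters summed to 258 and 261 TPM in shSafb, above 217 and 207 TPM in shCtrl, and the 11 drug and conjugate pumps to 261 and 280 TPM in shSafb, below 369 and 316 TPM in shCtrl.

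The mitochondrial members Abcb10 and Abcb6 went in opposite directions. Abcb10, an inner membrane protein needed for heme synthesis, had 9.28 and 9.59 TPM in shSafb, against 18.4 and 17.5 TPM in shCtrl. Its mean was 1.90-fold lower in shSafb (log2 difference -0.84 ± 0.07 SE, limma adjusted p = 0.00184; up to 0.0155 over 13 alternatives). Abcb6, which has been placed in the outer mitochondrial membrane and in lysosomes, had 22.01 and 18.3 TPM in shSafb, against 14.1 and 13.5 TPM in shCtrl (log2 difference 0.53 ± 0.11, limma adjusted p = 0.0169). The Abcb6 call was lost without shSafb replicate 1 (adjusted p = 0.0512), shCtrl replicate 1 (0.0688) or shCtrl replicate 2 (0.0679). A same-strand noncoding gene, Gm29253, contains 90.3% of the 50-base stretches of Abcb6 and was listed at 0.227 and 0.265 TPM in shSafb, against 0.0109 and 0.0999 TPM in shCtrl, so the division of reads between them is uncertain. Abcb8, also an inner membrane protein, had 37.5 and 27.5 TPM in shSafb and 28.1 and 30.9 TPM in shCtrl, with overlapping groups.

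In subfamily D, Abcd3 was lower in shSafb. Abcd3, the peroxisomal carrier for branched-chain acyl-CoA and bile acid precursors, had 49.2 and 47.8 TPM in shSafb, against 69.0 and 66.5 TPM in shCtrl (log2 difference -0.45 ± 0.05 SE, limma adjusted p = 0.00331). The call held under all 13 alternatives, with adjusted p up to 0.0240. Abcd4, which serves cobalamin release from lysosomes, had 3.56 and 4.13 TPM in shSafb, against 5.01 and 5.47 TPM in shCtrl. Its groups did not overlap either, but it did not pass (limma adjusted p = 0.0801). Abcd2 was listed at 0 in every library.

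Of the 4 ABC genes whose products do not transport, all tested, 3 were higher and 0 lower in shSafb, where 21.9% of all tested genes were called higher. All 4 had both shSafb libraries above both shCtrl libraries, as did 35.5% of all tested genes. Abce1, which splits ribosomes after translation ends, had 81.4 and 84.4 TPM in shSafb, against 57.3 and 54.8 TPM in shCtrl (log2 difference 0.58 ± 0.05 SE, limma adjusted p = 0.00174; up to 0.0144 over 13 alternatives). Abcf3, a cytosolic member that in yeast and mouse work has been tied to translation and antiviral defence, had 26.8 and 27.4 TPM in shSafb, against 20.9 and 22.6 TPM in shCtrl (log2 difference 0.33 ± 0.08, limma adjusted p = 0.0281). Abcf1, which binds initiation factor eIF2, had 66.4 and 65.8 TPM in shSafb, against 60.5 and 51.4 TPM in shCtrl (log2 difference 0.27 ± 0.07, limma adjusted p = 0.0415). The Abcf3 call was lost without shSafb replicate 1 (adjusted p = 0.0903), shSafb replicate 2 (0.103) or shCtrl replicate 1 (0.0805), and the Abcf1 call without shSafb replicate 1 (0.134), shSafb replicate 2 (0.116) or shCtrl replicate 2 (0.101) and in the deposited TPM without further scaling (0.0863). Abcf2 had 83.04 and 82.97 TPM in shSafb, against 78.4 and 78.4 TPM in shCtrl, and did not pass (limma adjusted p = 0.132). Of 6 partners in ribosome recycling and translation control, 3 were higher and 0 lower, beside 21.9% and 22.4% of all tested genes. Both shSafb libraries lay above both shCtrl libraries in 4 of them and below in 2 (35.5% and 39.3% of all tested genes). The ribosome rescue factor gene Pelo had 24.4 and 22.3 TPM in shSafb, against 15.9 and 13.6 TPM in shCtrl (limma adjusted p = 0.00614). Hbs1l, its GTPase partner, had 57.4 and 55.2 TPM in shSafb, against 46.6 and 45.4 TPM in shCtrl (limma adjusted p = 0.0103). Eif2s1, which encodes the alpha subunit of eIF2, had 56.5 and 55.8 TPM in shSafb, against 43.6 and 45.8 TPM in shCtrl (limma adjusted p = 0.0137).

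Of the 16 A genes, 5 sit side by side on chromosome 11, a row chosen after values were seen. Of the 4 tested, 2 were higher in shSafb, where 21.9% of all tested genes were called higher. Abca8b, Abca8a, Abca9, Abca6 and Abca5 follow each other there as neighbouring protein-coding genes on the minus strand, between 109932190 and 110337716 in mm10. Abca8a, whose human counterpart ABCA8 has been linked to cholesterol efflux and HDL, had 21.8 and 21.5 TPM in shSafb, against 14.4 and 13.7 TPM in shCtrl (log2 difference 0.62 ± 0.06 SE, limma adjusted p = 0.00296; up to 0.0225 over 13 alternatives). Abca8b, its neighbour, had 29.97 and 30.4 TPM in shSafb, against 25.9 and 25.3 TPM in shCtrl (log2 difference 0.25 ± 0.06, limma adjusted p = 0.0228), a call lost without any 1 library (0.0686 to 0.0982). Abca9 averaged under 1 TPM, with 0.581 and 0.579 TPM in shSafb, against 0.136 and 0.107 TPM in shCtrl, and was higher where genes from a mean of 0.1 TPM were tested (log2 difference 0.49 ± 0.10, limma adjusted p = 0.0244). Abca5, given above, was also listed higher in both shSafb libraries without passing. Abca6, in the middle of the row, had 6.42 and 5.01 TPM in shSafb and 8.06 and 5.18 TPM in shCtrl, with overlapping groups. Of the 50-base stretches of Abca8a, 1.89% also occur in Abca8b, so little of either transcript is shared exactly.

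**Figure D4:**
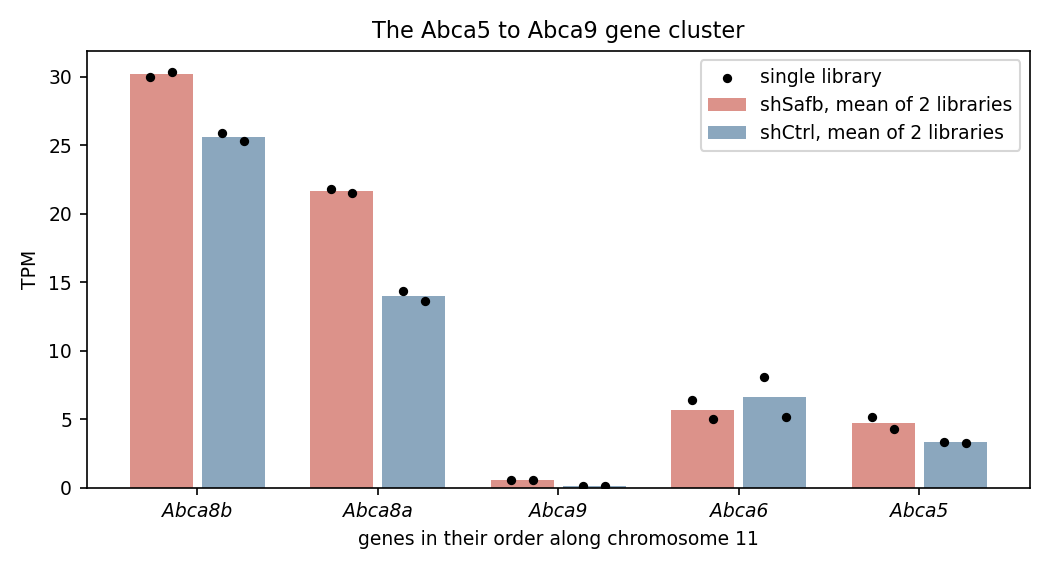
TPM of the 5 neighbouring A genes on chromosome 11, in their order along the chromosome. Bars are means of 2 libraries and dots single libraries. Both shSafb dots lie above both shCtrl dots for Abca8b, Abca8a, Abca9 and Abca5, and the groups overlap for Abca6. Of all tested genes, 35.5% had both shSafb libraries above both shCtrl libraries.

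The other members were low. Abcb9, a lysosomal peptide carrier, had 1.28 and 1.11 TPM in shSafb, against 2.12 and 1.77 TPM in shCtrl, without passing (limma adjusted p = 0.0773). Abcc8, a sulfonylurea receptor of potassium channels, had 0.490 and 0.296 TPM in shSafb, against 0.0703 and 0.221 TPM in shCtrl. Abca4, the retinal member, had 0.249 and 0.173 TPM in shSafb, against 0.0625 and 0.169 TPM in shCtrl, and Abca14 had 0.0714 and 0.161 TPM in shSafb and 0.0856 and 0.121 TPM in shCtrl. None of these 3 passed where genes from a mean of 0.1 TPM were tested (limma adjusted p = 0.190, 0.466 and 0.925). Abca13, Abca16 and Abca17 reached at most 0.0254 TPM in any library. Of 3 ABC genes with other symbols, Cftr, the chloride channel of the C subfamily and also a cholangiocyte marker, was lower at 0.714 and 0.673 TPM in shSafb, against 1.69 and 1.67 TPM in shCtrl (limma adjusted p = 0.0212). Cftr reached the filter of 1 TPM only through the shCtrl libraries. The peptide transporter genes did not pass, with Tap1 at 5.06 and 3.71 TPM in shSafb and 3.89 and 4.04 TPM in shCtrl, and Tap2 at 5.97 and 5.23 TPM in shSafb, against 6.32 and 10.04 TPM in shCtrl.

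Of 16 tested factors known to control ABC genes, 4 were higher and 4 lower, near the 21.9% and 22.4% of all tested genes. Nfe2l2, which encodes NRF2, an activator of several Abcc genes, had 67.7 and 71.8 TPM in shSafb, against 122 and 119 TPM in shCtrl (log2 difference -0.75 ± 0.05 SE, limma adjusted p = 0.00113). Nr1i2, which encodes the xenobiotic receptor PXR, had 2.96 and 3.17 TPM in shSafb, against 7.25 and 6.34 TPM in shCtrl (limma adjusted p = 0.00392). Ahr, the aryl hydrocarbon receptor gene, was higher, at 27.4 and 30.2 TPM in shSafb, against 17.8 and 15.7 TPM in shCtrl (limma adjusted p = 0.00328). The liver X receptor genes Nr1h3 and Nr1h2 and the bile acid receptor gene Nr1h4 did not pass (limma adjusted p = 0.0950, 0.593 and 0.268). Nr1h3 had 43.2 and 40.3 TPM in shSafb, below 47.4 and 49.3 TPM in shCtrl. Of all tested genes, 39.3% had both shSafb libraries below both shCtrl libraries.

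Of 10 tested sterol efflux partners, 4 were lower and 1 higher, where 22.4% of all tested genes were called lower and 21.9% higher. Apoa1, the acceptor of the lipid that ABCA1 exports, had 28.2 and 28.1 TPM in shSafb, against 56.4 and 56.4 TPM in shCtrl (log2 difference -0.95 ± 0.05 SE, limma adjusted p = 8.63e-04). Lpcat3, a phospholipid remodelling enzyme, had 91.4 and 82.5 TPM in shSafb, against 153 and 145 TPM in shCtrl (limma adjusted p = 0.00200). Mylip, which encodes a ubiquitin ligase for the LDL receptor, was higher, at 3.53 and 3.29 TPM in shSafb, against 1.07 and 1.09 TPM in shCtrl (limma adjusted p = 0.00374). Abca1 and Apoa1 were thus both lower in shSafb.

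Of 19 genes of bile acid synthesis and other bile transporters, 6 were tested, 4 were lower and 1 higher. Over all tested genes, 22.4% were called lower and 21.9% higher. Among the lower ones, Baat had 0.790 and 0.795 TPM in shSafb, against 1.53 and 1.93 TPM in shCtrl. Baat reached the filter of 1 TPM only through the shCtrl libraries. Hsd3b7, a bile acid synthesis enzyme, had 37.6 and 39.8 TPM in shSafb, against 73.7 and 82.2 TPM in shCtrl (limma adjusted p = 0.00220). Slco2a1, a prostaglandin carrier, had 62.04 and 66.8 TPM in shSafb, against 131 and 110 TPM in shCtrl (limma adjusted p = 0.00264), and Cyp27a1, which starts the acidic bile acid pathway, had 13.5 and 15.4 TPM in shSafb, against 27.1 and 27.7 TPM in shCtrl (limma adjusted p = 0.00286). The other 13 averaged under 1 TPM, and 5 of them, Cyp7a1 among them, were listed at 0 in every library.

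Partners of the organelle members were called in both directions. Of 10 tested peroxisome, iron-sulfur, heme and cobalamin genes, 2 were higher and 3 lower, beside 21.9% and 22.4% of all tested genes. Pex19, the chaperone that delivers ABCD proteins to the peroxisome membrane, was higher, at 71.7 and 68.96 TPM in shSafb, against 34.2 and 31.2 TPM in shCtrl (log2 difference 1.11 ± 0.06 SE, limma adjusted p = 7.97e-04), while Abcd3 was lower. Fech, which encodes ferrochelatase, the last enzyme of heme synthesis, had 22.6 and 23.1 TPM in shSafb, against 46.1 and 45.2 TPM in shCtrl (limma adjusted p = 8.78e-04), lower like Abcb10. Iscu, the iron-sulfur scaffold gene, had 47.6 and 36.0 TPM in shSafb, against 90.3 and 94.99 TPM in shCtrl (limma adjusted p = 0.00522). Of 9 genes that anchor or deliver canalicular pumps, 2 were higher and 2 lower, near the same shares over all tested genes. Myo5b, a motor of canalicular delivery, had 24.3 and 25.3 TPM in shSafb, against 14.9 and 15.3 TPM in shCtrl (limma adjusted p = 0.00282). Ezr, the ezrin gene, had 166 and 166 TPM in shSafb, against 131 and 135 TPM in shCtrl (limma adjusted p = 0.00843), and Rdx, the gene of radixin, the main canalicular linker in liver, had 96.9 and 109 TPM in shSafb, against 137 and 144 TPM in shCtrl (limma adjusted p = 0.0155).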

How the data were processed

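RNA of 2 shSafb and 2 shCtrl libraries was analysed from 1 table of TPM values made by the authors, 1 column per library. Per the submitters' processing notes, the tools were HISAT2, StringTie, HTSeq and DESeq2 on mm10, with no version or role stated. Libraries were strand-specific, per the labels' protocols, but whether counting used strand, the annotation and the read length are not given in the sources used here. TPM keeps no read totals, so sequencing depth cannot be stated and counting intervals are left out. The deposited TPM summed to 999843 in each shSafb library and 999891 in each shCtrl library, with 13117 and 13117 genes at 1 TPM in shSafb and 13006 and 12946 in shCtrl.

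From these values, 6 identifiers on more than 1 row were summed, libraries were scaled by the median ratio to the geometric mean (factors 0.992, 0.995, 1.03 and 0.991 for shSafb 1, shSafb 2, shCtrl 1 and shCtrl 2), and log2(scaled TPM + 1) of 13111 genes with a mean of at least 1 TPM was fitted with limma 3.58.1 in R 4.3.3 (group as the single term, variance trend on intensity, 2.61 prior and 2 residual degrees of freedom, two-sided test, Benjamini-Hochberg over all tested genes). On this scale the change of low genes is understated. The fit was also run on simulated data with far fewer changed genes than were called here, so that run does not cover data like these. ABC genes were named, except that results for some are not reported here, with statistics for called genes and the sterol, bile and drug groups, and up to 3 genes with the smallest p of each partner list. The adjusted p of Abcd4, Abcb9 and Abcf2, the chromosome 11 neighbours, the overlapping genes and the receptors Nr1h3, Nr1h2 and Nr1h4 were added after their values were seen. So were the macrophage markers Cd68 and Ptprc and the bile acid gene Baat. Members, groups and lists were chosen with earlier results of these data known. Positions come from GENCODE mouse release 21 on GRCm38, which held all 50 members, and exact 50-base stretches were matched to its transcripts. Alternatives covered the pseudocount, filter, scaling, variance model, replicate block, each library left out and a fold threshold. Tables and plots were made in Python 3.11.15 (numpy 2.4.6, pandas 2.3.3, matplotlib 3.10.9).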

Additional observations from a re-analysis of the deposited data

How the results depend on the processing

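The main counts were 7 ABC genes higher and 10 lower in shSafb, with 5805 of all tested genes called. Without 1 library at a time, 2 to 3 ABC genes were higher, 8 to 9 lower and 3729 to 4310 genes called. Where a 1.5-fold difference was required as well, 1 ABC gene was higher, 4 were lower and 2711 genes were called. The share of all genes called was 21.1% to 44.6% over the filters, scalings, pseudocounts and variance models. Of the 17 called ABC genes, 10 were called under each of the 13 alternatives other than the fold threshold, and Abca2, Abca3, Abca7, Abca8b, Abcb6, Abcf1 and Abcf3 were not. No called ABC gene changed sign under these alternatives. With upper-quartile scaling, Abca5 passed (limma adjusted p = 0.0467) and Abca3 did not (0.0722). Without the intensity trend, Abca5 (0.0402) and Abcb9 (0.0290) passed, and Abca3 (0.0824) and Abcf1 (0.0744) did not. With genes from a mean of 0.1 TPM tested, Abca9 passed (0.0244) and Abca3 (0.0524) and Abcf1 (0.0627) did not. With no filter on low TPM, Abca9 passed (0.0137) while Abca3, Abcb6, Abcf1 and Abcf3 did not. In the deposited TPM without further scaling, Abcf1 did not pass (0.0863). The cause of these changes was not tested. Same-numbered libraries of the groups did not deviate together (r = -0.0641 across genes), so the numbers were not taken as pairs. The replicate block gave 5 ABC genes higher, 10 lower and 5226 genes called, without Abca8b (adjusted p = 0.0558) and Abcf1 (0.0503). Depth is unknown, so no counting interval can be given for the 20 genes under 1 TPM.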
